A study of Mus musculus with 17 samples.

Results

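The genes described here are 9 protein-coding genes that lie beside Malat1 on mouse chromosome 19: Frmd8, Slc25a45, Dpf2, Capn1, Ltbp3, Sipa1, Map3k11, Pcnx3 and Ehbp1l1. They were chosen by name for their position, not by any measured value, and are 9 of the 26131 genes in the deposited count table. Malat1 is a long noncoding RNA retained in nuclei, in and around the speckles where splicing factors gather. Its locus is a dense stretch of genes, with the noncoding RNA Neat1, the scaffold of the nuclear bodies called paraspeckles, next to it. Since some long noncoding RNAs act on the genes around them, the neighbours of a lowered RNA are the usual place to look for changes in cis. The study set carriers of an antisense oligonucleotide against each other, and the values below show how each neighbour stood in the animals in which Malat1 fell.

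Single-nucleus RNA counts came from the posterior brain of 17 female mice, 2.3 months old. All animals, controls included, were of the strain Human TfR knock-in with the genotype hTfR KI HOM, so that they carry the human transferrin receptor. They received 4 weekly intravenous doses of saline (n = 4), of Malat1 ASO, a free antisense oligonucleotide, at 2 mg per kg (n = 4), of anti-TfR:Malat1, the conjugate with an antibody to the receptor, at 50 mg per kg (n = 6), or of OTV:Malat1, the conjugate with a receptor-binding transport vehicle, at 50 mg per kg (n = 3). The brains were collected 72 hours after dosing ended. The deposited batch column puts the saline replicates 1 to 4 in batches 1 to 4 and the OTV:Malat1 replicates 1 to 3 in batches 2 to 4, so p-values measure a spread between samples that includes that between batches.

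The table held 284074 nuclei and 1099241149 UMIs (unique molecular identifiers, each counting 1 captured RNA molecule), with 55393588 to 79866411 UMIs per animal. The deposited label Oligodendrocytes, the myelin-forming cells, held 3721 to 5797 nuclei and 4120611 to 9483846 UMIs per animal. The labels fitted their markers: the myelin gene Mbp stood at 4347 counts per 1000000 UMIs, Malat1 included and all 17 animals summed, in nuclei labelled oligodendrocytes and 134 in those labelled neurons, and Meg3 at 423 and 7872. Of the nuclei labelled oligodendrocytes, 2.82% lay outside the deposited clusters whose leading genes match the label, against 10.1% of those labelled neurons. The latter included 7336 nuclei in a cluster led by genes of oligodendrocyte precursors. They also included 5818 nuclei in cluster 2 and 436 in cluster 0, both led by oligodendrocyte genes. Any pair of libraries shared 50 to 110 cell barcodes, at most 0.623% of the smaller library.

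Malat1, the target, was checked first. In oligodendrocyte nuclei it made up 11.96%, 10.21%, 10.86% and 7.826% of all UMIs in the saline animals (10.2% ± 1.75, SD, n = 4). The OTV:Malat1 animals gave 1.895%, 1.613% and 1.497% (1.67% ± 0.205, SD, n = 3), far below every saline animal, the Malat1 ASO animals averaged 9.73% ± 2.08 (SD, n = 4), and the anti-TfR:Malat1 animals ran from 5.91% over a median of 6.64% to 8.75%, overlapping the lowest saline animal. By edgeR's quasi-likelihood test over all genes, the log2 change of Malat1 was -2.79 with OTV:Malat1 against saline (SE 0.19, Benjamini-Hochberg adjusted p = 9.8e-08), beside -0.61 with anti-TfR:Malat1 (SE 0.14, adjusted p = 1.00) and -0.07 with Malat1 ASO (SE 0.16, adjusted p = 1.00). Within the deposited batches Malat1 was lower with anti-TfR:Malat1 than with saline in 4 of 4, with log2 differences of -0.996, -0.61, -0.44 and -0.41. Because Malat1 takes so large a share of oligodendrocyte UMIs, its loss alone would raise every other gene by 0.13 on the log2 scale in the OTV:Malat1 animals if it stayed in the total. All levels of other genes are therefore counts per 1000000 UMIs that are not Malat1 (CPM).

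Along the chromosome the genes lie on both sides of Malat1, which is annotated on the minus strand at chr19:5795690-5802672 (GRCm38, GENCODE M21). On the side of lower coordinates are Sipa1 (chr19:5651185-5663707, minus strand), Pcnx3 (chr19:5664635-5688908, minus), Map3k11 (chr19:5688742-5702865, plus), Ehbp1l1 (chr19:5707376-5726317, minus) and Ltbp3 (chr19:5740904-5758532, plus). On the other side Neat1 (chr19:5824708-5845478, minus) comes first, then Frmd8 (chr19:5849702-5875274, minus), Slc25a45 (chr19:5877808-5885878, plus), Dpf2 (chr19:5896516-5913010, minus) and Capn1 (chr19:5988545-6015897, minus). Measured from start to start, Ltbp3 at 61.8 kb is the nearest of the 9 to Malat1 and Capn1 at 213 kb the farthest. Frmd8 ends 4.22 kb from the start of Neat1, and Frmd8 and Slc25a45 are transcribed away from each other from starts 2.53 kb apart. Map3k11 and Pcnx3 overlap head to head by 167 bases, Frmd8 overlaps Frmd8os by 1687 bases, Capn1 overlaps Gm10814 by 3278 and Dpf2 overlaps Gm42067 by 189. The sources used here do not say whether the counting used strand, and without it reads from such stretches cannot be told apart.

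All 9 genes matched the RefSeq promoter table (GRCm38.p6). The upstream sequences of 3 of them are shown because their genes had the clearest cell type preferences below, Frmd8 in oligodendrocytes, Slc25a45 and Sipa1 in microglia, and because Frmd8 and Slc25a45 are divergent neighbours. Each runs 5′ to 3′ on the strand of its gene and ends at the base before the start, and capitals mark the letters GAGGAAG, the core bound by the myeloid factor PU.1.
Frmd8: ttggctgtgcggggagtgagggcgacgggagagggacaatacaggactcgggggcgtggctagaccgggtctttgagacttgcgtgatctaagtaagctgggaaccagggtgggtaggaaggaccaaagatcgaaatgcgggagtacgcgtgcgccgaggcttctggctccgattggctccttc
Slc25a45: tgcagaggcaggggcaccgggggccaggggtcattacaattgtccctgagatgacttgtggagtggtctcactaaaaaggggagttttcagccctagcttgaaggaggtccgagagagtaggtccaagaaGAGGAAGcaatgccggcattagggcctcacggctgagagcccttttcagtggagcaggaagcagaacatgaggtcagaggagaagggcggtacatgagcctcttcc
Sipa1: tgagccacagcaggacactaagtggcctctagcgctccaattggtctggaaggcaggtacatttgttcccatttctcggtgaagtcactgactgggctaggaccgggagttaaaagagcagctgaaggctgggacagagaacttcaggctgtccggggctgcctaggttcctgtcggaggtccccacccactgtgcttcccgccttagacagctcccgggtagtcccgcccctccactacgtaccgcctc
The stretch of Frmd8 is chr19:5875275-5875458 on the minus strand, 184 bases with 14 CpG, that of Slc25a45 is chr19:5877572-5877807 on the plus strand, 236 bases with 5 CpG, and that of Sipa1 is chr19:5663708-5663957 on the minus strand, 250 bases with 10 CpG. Searched on both strands in the 250 bases before each RefSeq start, GAGGAAG was in the windows of Frmd8 and Slc25a45 and in 1 of the windows of Capn1, and in 10.6% of all 32851 promoters. In the window of Frmd8 the letters lie outside the stretch printed. ACAAAG, the core bound by SOX factors, was in 1 window of Capn1 and in 16.5% of all promoters. CCGGAAG, an ETS core, was in the windows of Ehbp1l1 and of Map3k11 and Pcnx3, which share the site, and in 6.91% of all promoters. The letters GGAAG are common to the first and the last of these motifs, and a match describes the sequence only.

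The levels of the 9 genes across cell type labels are given first in the saline animals, as a description, with the difference between labels taken within each animal on the log2(CPM + 1) scale over all 17. Frmd8 encodes a FERM-domain protein that binds the iRhoms and keeps the ADAM17 sheddase complex stable at the cell surface. It was the gene of the 9 that stood higher in oligodendrocytes than in every other label without overlap. Its saline level there was 93.1 to 116 CPM with a median of 103. No other label overlapped that range: microglia followed with a median of 38.6, then vascular cells with 33.7, perivascular macrophages with 26.4, astrocytes with 12.4 and neurons with 8.01. The order among microglia, vascular cells and perivascular macrophages rested on ranges that overlap and on 6 to 90 UMIs. Oligodendrocytes exceeded neurons in 17 of 17 animals, by 3.65 ± 0.12 (SD) on the log2(CPM + 1) scale. For comparison, Mbp had a median of 308 CPM in the saline nuclei labelled microglia against 4431 in oligodendrocytes, and the part of free RNA in the lower levels was not tested.

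**Figure D1:**
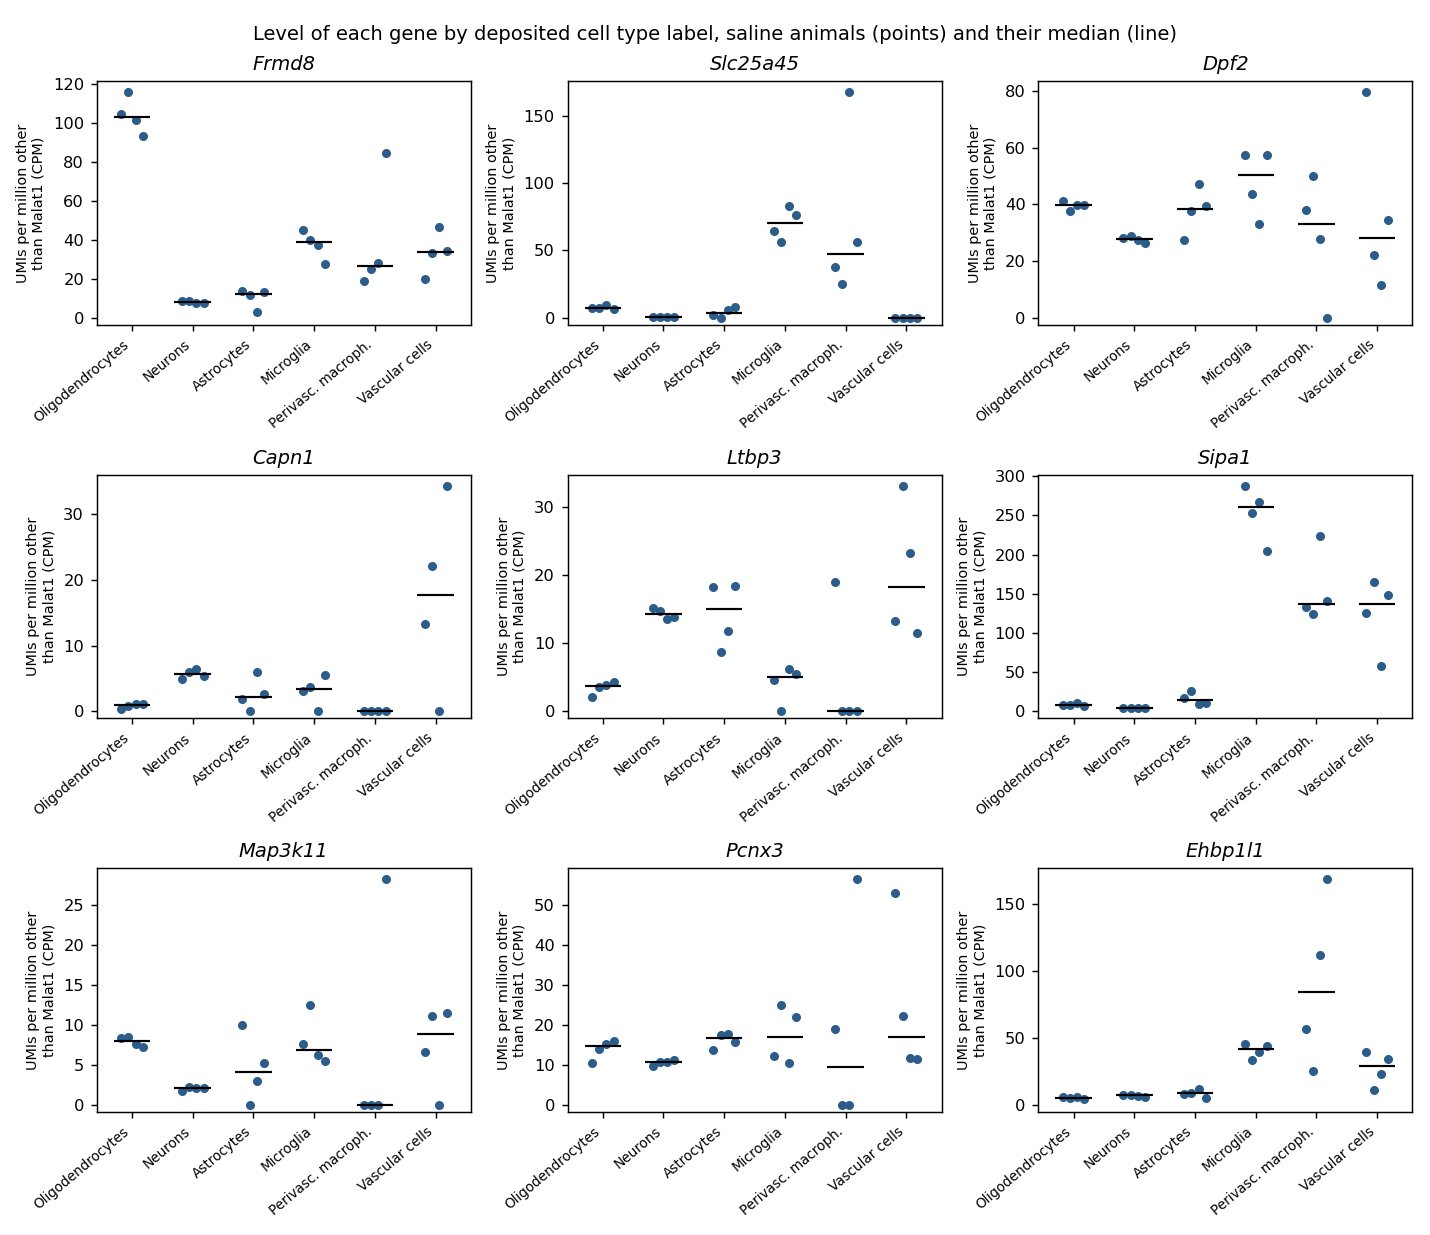
CPM (vertical axis, linear, 1 panel per gene) in each deposited cell type label for the 4 saline animals (points) with their median (line). Frmd8 is highest in oligodendrocytes at a median of 103 CPM, Sipa1 in microglia at 260, and Slc25a45 in microglia at 70.7 and perivascular macrophages at 47.1.

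Sipa1, which encodes a GTPase-activating protein that switches off the small GTPase Rap, had its highest median in microglia. Its saline level there was 205 to 288 CPM with a median of 260. Vascular cells, at 57.9 to 165 CPM, lay below that range, and perivascular macrophages, at 125 to 223 on 25 UMIs, overlapped it. Both had a median of 137, and astrocytes (13.9), oligodendrocytes (7.94) and neurons (4.31) lay far below. Microglia exceeded oligodendrocytes by 4.80 ± 0.20 (SD) on the log2(CPM + 1) scale, in 17 of 17 animals. The microglial receptor gene Csf1r, measured in the same saline nuclei, had a median of 823 CPM in microglia and 4.08 in oligodendrocytes.

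Slc25a45, a member of the mitochondrial carrier family, was likewise a gene of the myeloid cells. Microglia had 56.1 to 83.0 CPM with a median of 70.7, and perivascular macrophages 24.9 to 168 with a median of 47.1 on 11 UMIs, so these 2 labels overlap. Oligodendrocytes followed at 7.40, astrocytes at 3.87 and neurons at 0.43. In vascular cells 0 UMIs of Slc25a45 were found among 415433 that are not Malat1, which allows a level of up to 7.22 CPM (3 counts, counting error only). Slc25a45 and Frmd8, whose starts face each other, thus had their highest levels under different labels.

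Ehbp1l1, whose product binds EH-domain proteins and takes part in vesicle transport with Rab8, was also highest in macrophage labels, at medians of 84.3 CPM in perivascular macrophages (14 UMIs) and 41.6 in microglia. Their ranges overlap, as do those of microglia and vascular cells (28.7). In astrocytes, neurons and oligodendrocytes the medians were 8.43, 6.95 and 5.15. Microglia exceeded oligodendrocytes by 2.75 ± 0.36 (SD) on the log2(CPM + 1) scale in 17 of 17 animals.

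Ltbp3 and Capn1 stood higher in neurons than in oligodendrocytes, the 2 largest labels. Ltbp3 encodes a latent TGF-beta binding protein of the extracellular matrix. Its medians were 18.2 CPM in vascular cells, 15.0 in astrocytes and 14.2 in neurons, with overlapping ranges, and 5.00 in microglia and 3.77 in oligodendrocytes. Neurons exceeded oligodendrocytes by 1.71 ± 0.25 (SD) on the log2(CPM + 1) scale in 17 of 17 animals. Among the 3 neuron clusters led by inhibitory marker genes, Ltbp3 stood at 29.7 and 28.2 CPM in clusters 1 and 4 but at 12.9 in cluster 10. Capn1, the catalytic subunit of the calcium-dependent protease calpain-1, had medians of 17.6 CPM in vascular cells on 7 UMIs and of 5.63 in neurons on 1194. In oligodendrocytes it was at 0.93 CPM, from 3 to 6 UMIs per saline animal, and neurons were above them by 1.91 ± 0.33 (SD) in 17 of 17 animals. Of 164159 UMIs in perivascular macrophages that are not Malat1, 0 were Capn1, which allows up to 18.3 CPM.

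Of the other 3 genes, Dpf2 and Pcnx3 were spread more evenly. Dpf2, a subunit of the BAF chromatin-remodelling complex, had medians from 27.8 CPM in neurons to 50.5 in microglia, and each neighbour in that order overlapped the next. Oligodendrocytes, at 39.7 CPM, still exceeded neurons in 17 of 17 animals, by 0.57 ± 0.11 (SD) on the log2(CPM + 1) scale. Pcnx3, a multi-pass membrane protein of the pecanex family, ran from 9.48 CPM in perivascular macrophages to 16.96 in microglia, all neighbours overlapping, with oligodendrocytes (14.6) above neurons (10.6) in 17 of 17 animals by 0.31 ± 0.20 (SD). Map3k11 encodes the kinase MLK3, which acts upstream of JNK. Its oligodendrocyte level of 7.18 to 8.41 CPM lay above the neuronal 1.69 to 2.17, a difference of 1.68 ± 0.23 (SD) in 17 of 17 animals. The ranges of vascular cells (3 UMIs), microglia (20), astrocytes (14) and perivascular macrophages (1) all overlapped the oligodendrocyte one.

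Over the 20 deposited clusters, with saline animals summed, the 9 genes did not share 1 pattern. Pearson's r between pairs of them on log2(CPM + 1), given as a description over clusters that share libraries and differ in depth, ran from -0.76 for Dpf2 and Capn1 to 0.81 for Slc25a45 and Map3k11. The divergent pair Frmd8 and Slc25a45 had r = 0.71, the head-to-head pair Map3k11 and Pcnx3 0.69, and the myeloid pair Sipa1 and Ehbp1l1 0.80. Slc25a45, also high in myeloid cells, had 0.68 with Sipa1 and 0.31 with Ehbp1l1. For pairs of the 9, r was not taken without cluster 19. That cluster held 18 saline nuclei and 0 UMIs of Slc25a45, Capn1, Map3k11 and Pcnx3. Dpf2, Ltbp3, Sipa1 and Ehbp1l1 stood at 54.1, 54.1, 72.1 and 36.0 CPM in it, on 3, 3, 4 and 2 UMIs. Frmd8 and its noncoding neighbour Neat1 had r = 0.88, and Neat1 stood at 1225, 998 and 1224 CPM in the clusters numbered 0, 2 and 15, which express oligodendrocyte genes.

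Among the 16261 genes that reached 5 CPM in a cluster, the one most like Frmd8 was Slc12a2 (r = 0.97), and the one most like Sipa1 was Osbpl11 (r = 0.98). The other closest matches were Trir for Slc25a45 (r = 0.94), Dph5 for Dpf2 (0.93), Tspan33 for Capn1 (0.91), Steap2 for Ltbp3 (0.90), Gm17491 for Map3k11 (0.94), Uba1 for Pcnx3 (0.99) and Mtr for Ehbp1l1 (0.95). Cluster 19 held 18 saline nuclei, and without it r ranged from 0.87 for Pcnx3 and Uba1 to 0.98 for Sipa1 and Osbpl11 over the same pairs.

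In oligodendrocytes no neighbour passed the test under any treatment, OTV:Malat1 included, where Malat1 fell furthest. Of the 9 genes 8 had enough counts to be tested, and Capn1 was left out by the filter on low counts. With OTV:Malat1 against saline 3 of 14391 genes were called at an adjusted p under 0.05 (0.0208%), Malat1, Saa3 and Slc35f2, each lower, and 0 of the 8. With anti-TfR:Malat1 and with Malat1 ASO against saline 0 genes were called (0.0% in both), and with OTV:Malat1 against anti-TfR:Malat1 1 gene (0.00695%), Malat1. At an unadjusted p under 0.05 edgeR's test held 370 genes (2.57%), 258 (1.79%), 150 (1.04%) and 418 (2.9%) in these 4 comparisons, and 0, 0, 0 and 1 of the 8. DESeq2 called 0 of the 8 as well. The saline animals are common to 3 of the 4 comparisons. Each of the 4 shares at an unadjusted p under 0.05 is below the share that this threshold would give by chance. Malat1 itself, at -0.61 with anti-TfR:Malat1 against saline, was not called, so a count of 0 does not show that a gene was unchanged.

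**Figure D2:**
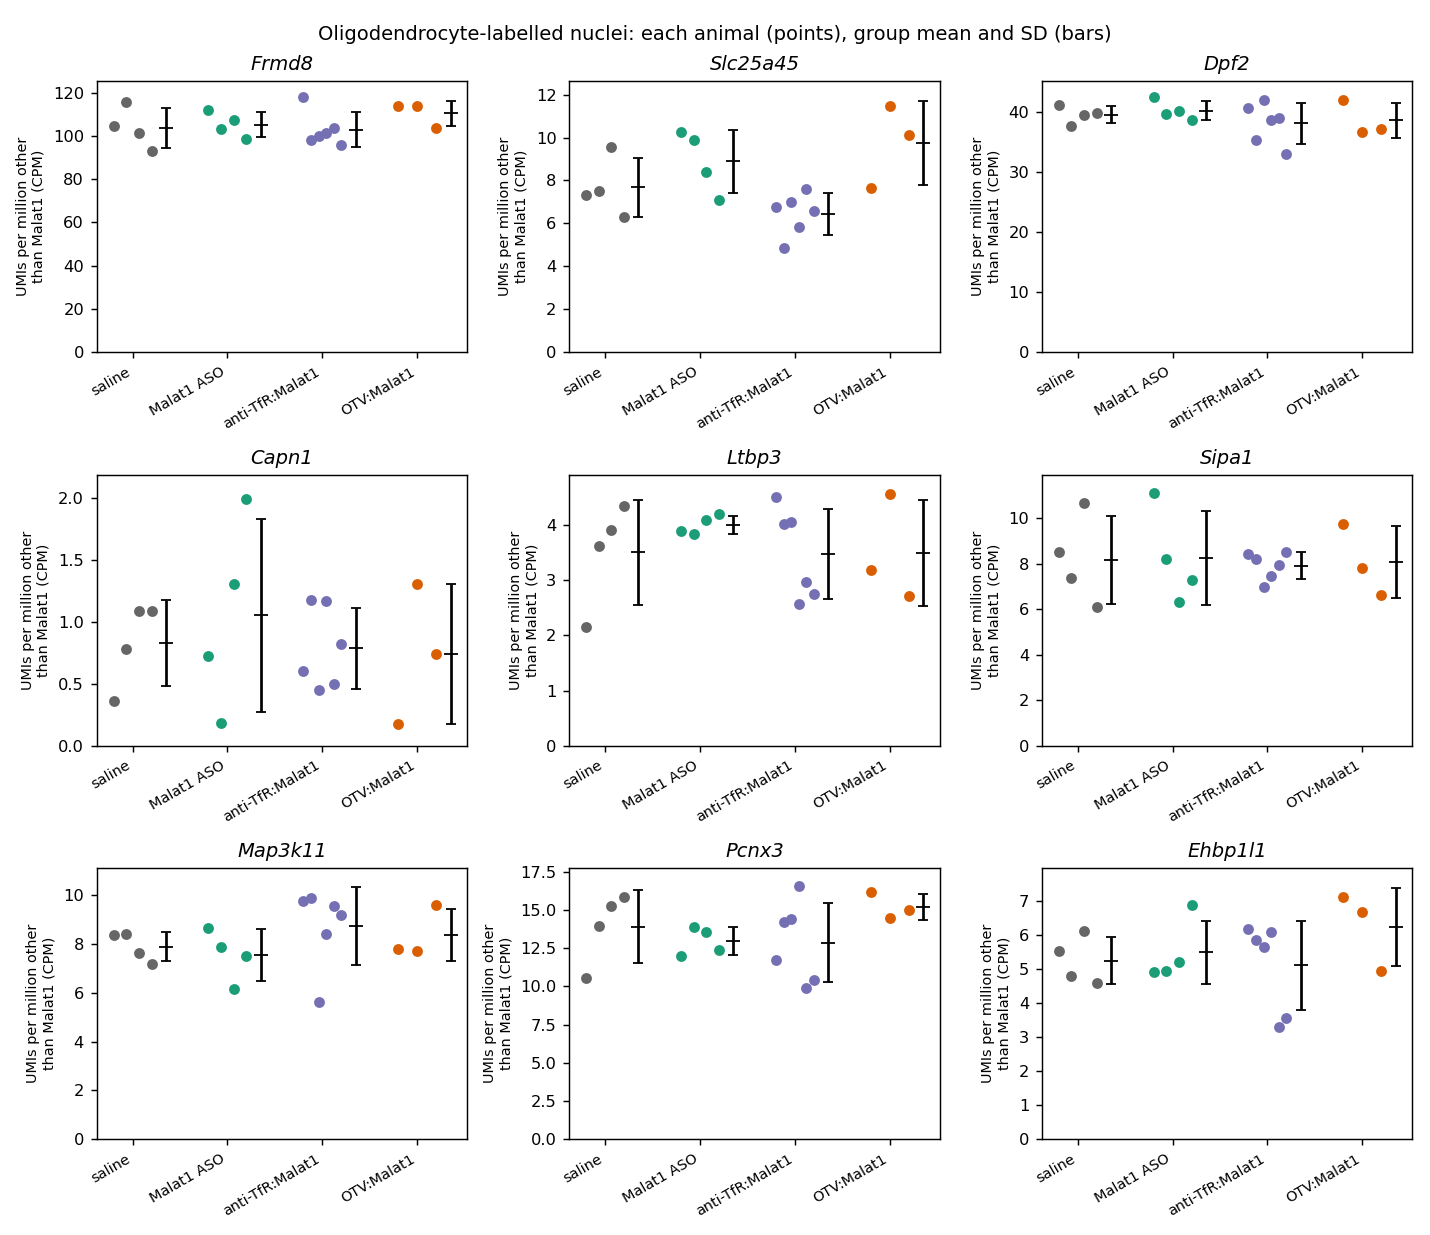
CPM (vertical axis, linear, from 0, 1 panel per gene) in oligodendrocyte-labelled nuclei of each animal (points), by treatment, with the group mean and SD (bars). Each treated group overlaps saline in every panel, and in that of Slc25a45 the OTV:Malat1 animals, from 7.64 CPM up, sit just above the anti-TfR:Malat1 animals, at most 7.60.

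Frmd8, the neighbour with the most oligodendrocyte UMIs, gave the tightest limits. The saline animals had 104.6, 115.7, 101.2 and 93.12 CPM of Frmd8 (103.7 ± 9.37, SD, n = 4), from 428 to 895 UMIs each. The OTV:Malat1 animals had 113.6, 113.8 and 103.7 (110.4 ± 5.78, SD, n = 3). All 3 of these lie within the saline range. The Malat1 ASO animals had 111.9, 103.2, 107.2 and 98.46, and the anti-TfR:Malat1 animals 95.8 at the lowest, 100.7 at the median and 118.1 at the highest. The fitted change of Frmd8 with OTV:Malat1 against saline was 0.04 on the log2 scale (SE 0.09), with a 95% interval from -0.16 to 0.24, which corresponds to 0.897-fold to 1.18-fold. Within the deposited batches the difference ran from -0.03 to 0.17, positive in 2 of the 3 batches that hold both groups; batch 1 holds no OTV:Malat1 animal.

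Slc25a45 showed the largest differences of the 8. The saline animals had 7.306, 7.5, 9.58 and 6.309 CPM of Slc25a45 from 29 to 61 UMIs (7.67 ± 1.37, SD, n = 4). The OTV:Malat1 animals had 7.636, 11.48 and 10.1 from 41 to 88 UMIs (9.74 ± 1.95, SD, n = 3), of which 2 lay above all saline animals and 1 within their range. The Malat1 ASO animals had 10.25, 9.879, 8.374 and 7.08. The anti-TfR:Malat1 animals had 4.855 at the lowest, 6.67 at the median and 7.601 at the highest (6.44 ± 0.963, SD, n = 6). The 2 conjugates did not overlap, the lowest OTV:Malat1 animal lying just above the highest anti-TfR:Malat1 animal, as in 1.1% of all genes tested. The 5 microglial markers, none of them at 0 in any group, summed in the same oligodendrocyte nuclei to 65.0 to 92.9 CPM with OTV:Malat1 (median 88.9), 69.6 to 86.6 in saline (median 74.1), 66.2 to 80.8 with Malat1 ASO (median 76.5) and 60.5 to 87.6 with anti-TfR:Malat1 (median 71.7). These ranges overlap, and their part in the values of Slc25a45, which is higher in microglia, was not tested.

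Against saline the fitted changes of Slc25a45 were 0.30 with OTV:Malat1 (SE 0.19, 95% interval -0.10 to 0.70, and 0.18 without OTV:Malat1 replicate 2), -0.24 with anti-TfR:Malat1 (SE 0.17) and 0.23 with Malat1 ASO (SE 0.18). Between the 2 conjugates, given at 50 mg per kg each, the difference was 0.55 (SE 0.18, interval 0.17 to 0.92, unadjusted p = 0.0063). Its adjusted p by edgeR's quasi-likelihood test with Benjamini-Hochberg adjustment was 0.992, so it did not pass. Because the 2 conjugates did not overlap, its positive sign in 3 of 3 batches (0.46 to 0.76) was given in advance and adds no support. Its size ran from 0.42 to 0.67 when each animal was left out, the lowest without OTV:Malat1 replicate 2 (unadjusted p = 0.066 by edgeR).

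Dpf2 had 41.2, 37.76, 39.63 and 39.81 CPM in the saline animals (39.6 ± 1.41, SD, n = 4) and 42.09, 36.67 and 37.2 with OTV:Malat1 (38.7 ± 2.98, SD, n = 3). The OTV:Malat1 values lie on both sides of the saline range, and the change was -0.08 (SE 0.10, 95% interval -0.30 to 0.14). With Malat1 ASO the animals had 42.59, 39.7, 40.19 and 38.72, and with anti-TfR:Malat1 33.06 at the lowest, 38.9 at the median and 42.09 at the highest.

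Of the genes on the other side of Malat1, Ltbp3 is the nearest. Its saline animals had 2.156, 3.621, 3.919 and 4.351 CPM of Ltbp3 from 18 to 28 UMIs, and the OTV:Malat1 animals 3.196, 4.568 and 2.71. The groups overlap, and the 95% interval of the change, 0.01 (SE 0.27), ran from -0.54 to 0.57. Ehbp1l1 had 5.509, 4.784, 6.097 and 4.569 CPM in the saline animals and 7.103, 6.656 and 4.927 with OTV:Malat1, 2 animals of which were above all saline animals. Its change was 0.22 (SE 0.24, interval -0.27 to 0.71), positive in 3 of 3 batches (0.09 to 0.49), and ran from 0.093 without OTV:Malat1 replicate 1 to 0.33 without OTV:Malat1 replicate 3.

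Map3k11 and Pcnx3, the overlapping pair, had fitted changes near 0. Map3k11 had 8.384, 8.405, 7.621 and 7.179 CPM in the saline animals and 7.813, 7.7 and 9.608 with OTV:Malat1, a change of 0.01 (SE 0.20, interval -0.40 to 0.42). Pcnx3 had 10.54, 13.97, 15.24 and 15.88 in the saline animals and 16.16, 14.49 and 15.03 with OTV:Malat1, a change of 0.09 (SE 0.17, interval -0.27 to 0.46). Both genes overlapped between the groups. Sipa1, low in this cell type, had 8.504, 7.371, 10.67 and 6.092 in the saline animals and 9.767, 7.831 and 6.652 with OTV:Malat1, all within the saline range (change -0.05, SE 0.21, interval -0.49 to 0.39). For Capn1, not tested, the saline animals had 0.359 to 1.09 CPM and the OTV:Malat1 animals 0.178, 0.739 and 1.31, from 1 to 10 UMIs each.

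The lowest adjusted p among the 8 was 0.968 with OTV:Malat1 against saline, by edgeR's quasi-likelihood test with Benjamini-Hochberg adjustment. Their median change there was 0.03, with 6 of 8 positive, beside a median of 0.009 and 52.1% positive over the 14390 genes tested other than Malat1, the 8 included. Of the same 8, 6 were positive with Malat1 ASO as well (median 0.03), where Malat1 itself changed by -0.07. The count was 2 with anti-TfR:Malat1 (median -0.04) and 4 between the conjugates (median 0.02). With anti-TfR:Malat1 the changes ran from -0.24 (Slc25a45) to 0.15 (Map3k11), and with Malat1 ASO from -0.08 (Pcnx3) to 0.23 (Slc25a45). Between the conjugates they ran from -0.14 (Map3k11) to 0.55 (Slc25a45).

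**Figure D3:**
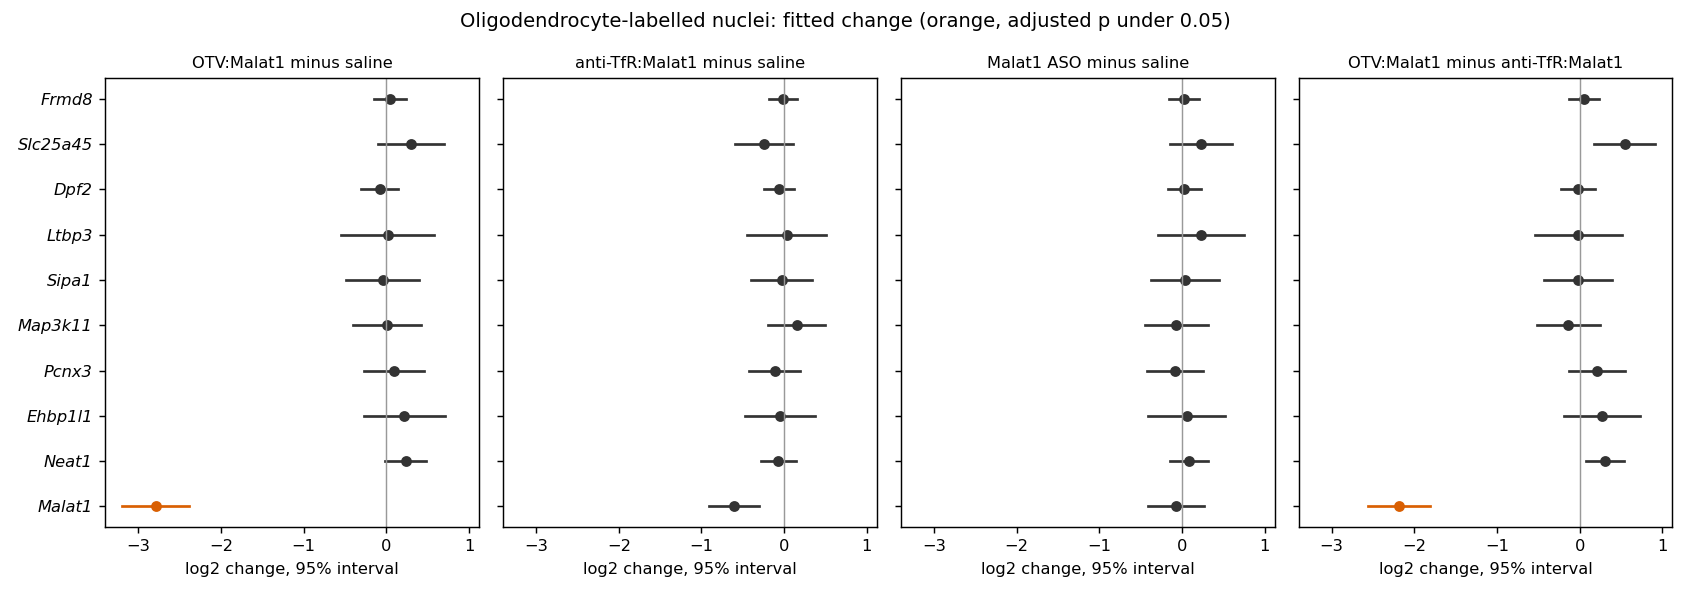
Fitted log2 change (horizontal axis) with its 95% interval in oligodendrocyte-labelled nuclei, for 8 neighbours, Neat1 and Malat1 (rows), in 4 comparisons (panels); orange marks an adjusted p under 0.05. Malat1 stands alone at -2.79 and -2.18 in the panels of OTV:Malat1 against saline and against anti-TfR:Malat1, and the interval of Frmd8 is the narrowest of the 8 neighbours, while Slc25a45 against anti-TfR:Malat1 lies between 0.17 and 0.92 without passing.

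Neat1, between Malat1 and Frmd8, had 1234, 1074, 1230 and 887.2 CPM in the oligodendrocytes of the saline animals and 1442, 1393 and 1193 with OTV:Malat1. Two-sided by edgeR, its change of 0.23 (SE 0.12, unadjusted p = 0.064, adjusted p = 0.968) did not pass, and the groups overlap through 1 OTV:Malat1 animal. It was positive in 3 of 3 batches (0.18 to 0.43) and ran from 0.15 to 0.30 when each animal was left out. Against anti-TfR:Malat1, whose animals had 810 to 1201 CPM of Neat1, the difference was 0.31 (SE 0.11, unadjusted p = 0.011, adjusted p = 0.992).

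The wider neighbourhood gave the same count of 0. Of 94 protein-coding genes annotated with a start within 1 Mb of Malat1, 68 were tested in oligodendrocytes, and with OTV:Malat1 against saline edgeR called 0 of them, with 2 at an unadjusted p under 0.05. Their median change was 0.11, with 52 of 68 positive (76.5%), while the 347 tested coding genes of chromosome 19 beyond 1 Mb had a median of 0.003, with 50.4% positive. The 17 tested genes within 250 kb, which include the 8, had a median of 0.05 with 12 positive. The 51 between 250 kb and 1 Mb had a median of 0.13 with 40 positive (78.4%). These medians are descriptions, since genes of 1 stretch of chromosome and 1 set of animals are not independent, and no test was made over them. They are given for OTV:Malat1 against saline only, and a link with the fall of Malat1 was not tested.

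**Figure D4:**
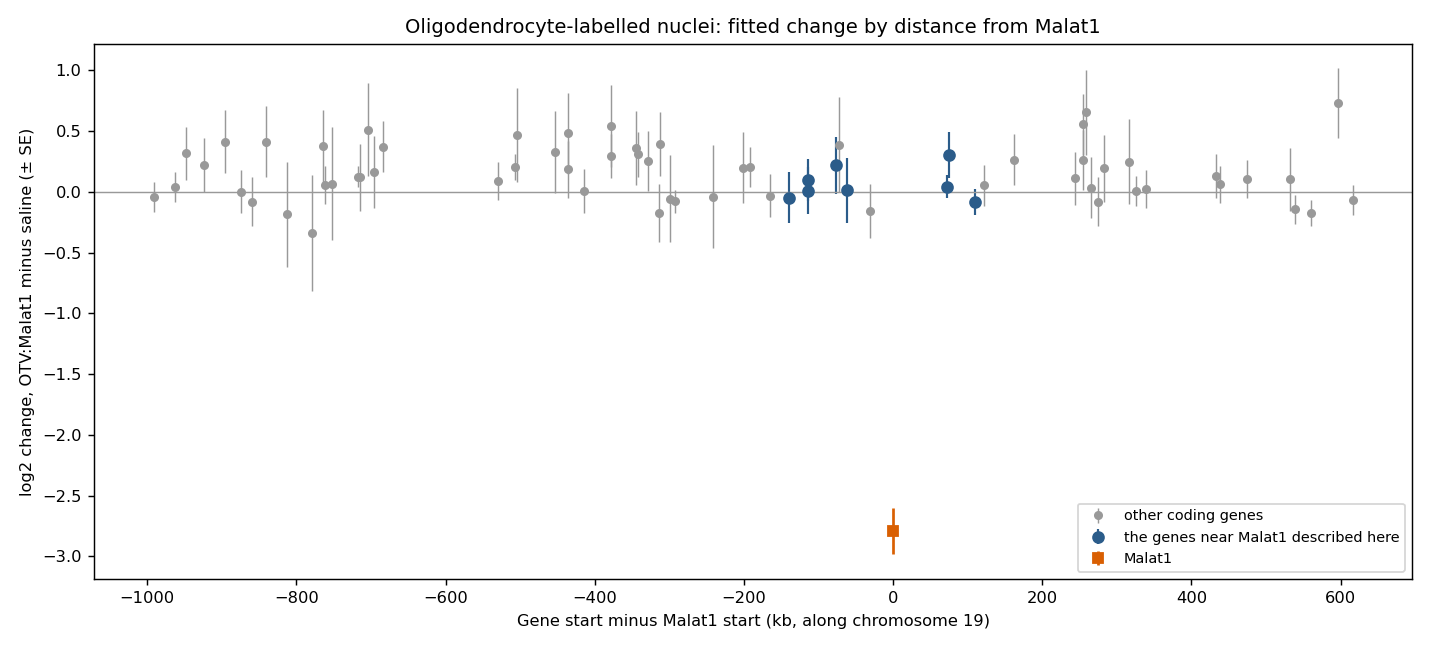
Fitted log2 change with OTV:Malat1 against saline in oligodendrocyte-labelled nuclei (vertical axis, ± SE) by the distance of each gene's start from that of Malat1 (horizontal axis, kb), for coding genes within 1 Mb. Malat1 (orange square) lies at -2.79 and the described neighbours (blue) between -0.08 and 0.30, among the other coding genes (grey), whose median with them was 0.11.

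In all nuclei together the 9 genes were all tested, among 21429, and by edgeR's test 0 genes were called in each of the 4 comparisons (0.0% in each), Malat1 included. At an unadjusted p under 0.05 there were 247 genes (1.15%) with OTV:Malat1, 258 (1.2%) with anti-TfR:Malat1 and 131 (0.611%) with Malat1 ASO against saline, 329 (1.54%) between the conjugates, and 0 of the 9 in any of them. DESeq2 called 1 gene with OTV:Malat1 against saline, not one of the 9. Changes of the 9 ran from -0.17 (Ehbp1l1) to 0.07 (Slc25a45) with OTV:Malat1, from -0.21 (Slc25a45) to 0.06 (Capn1) with anti-TfR:Malat1, from -0.09 (Sipa1) to 0.10 (Pcnx3) with Malat1 ASO and from -0.12 (Ltbp3) to 0.27 (Slc25a45) between the conjugates. Dpf2 was lower without overlap in the anti-TfR:Malat1 animals, at 24.0 to 27.2 CPM against 27.95 to 30.18 in the saline animals, as were 0.378% of all genes. Its change was -0.11 (SE 0.06, unadjusted p = 0.056, adjusted p = 1.00 by edgeR with Benjamini-Hochberg adjustment).

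The nuclei labelled neurons, 68.0% of all nuclei, showed the same. Their values are largely part of those for all nuclei and are not a second observation. Dpf2 had 22.93 to 25.79 CPM there with anti-TfR:Malat1 and 26.49 to 28.75 in saline, no overlap, as in 0.364% of genes. The change of Dpf2 was -0.13 (SE 0.06, unadjusted p = 0.037), and with an adjusted p of 1.00 by edgeR it did not pass, like all other genes there (0.0% called, 249 or 1.19% at an unadjusted p under 0.05). In neurons all 9 genes were tested among 20873, and edgeR called 0 genes with OTV:Malat1 against saline (0.0%, with 246 genes or 1.18% at an unadjusted p under 0.05, 0 of the 9 among them). The changes ran from -0.20 (Ehbp1l1) to 0.32 (Slc25a45), beside -0.64 for Malat1 (SE 0.20, adjusted p = 1.00).

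Whether the changes differ between oligodendrocytes and neurons was tested directly, as the interaction of label and treatment with the animal as a block. With OTV:Malat1 against saline 1 of 20238 genes passed (0.00494%), Malat1, whose change was lower by 2.16 in oligodendrocytes than in neurons on the log2 scale (difference -2.16, SE 0.12). None of the 9 genes passed. For Capn1, which the filter on low counts left out of the oligodendrocyte fit, the difference had an SE of 0.58 and says little. Ehbp1l1 had a difference of 0.43 (SE 0.21, unadjusted p = 0.047, adjusted p = 0.974 by edgeR) and Frmd8 one of 0.14 (unadjusted p = 0.18). Between the conjugates Malat1 was again the 1 gene called (0.00494%), and Pcnx3 had 0.35 (SE 0.14, unadjusted p = 0.017, adjusted p = 1.00 by edgeR). How many of all genes had so low an unadjusted p in the interaction was not counted. With nuclei kept only in clusters that match their label, 2 and 1 of 19923 genes were called in the 2 comparisons (0.01% and 0.00502%), none of the 9.

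In microglia, where Sipa1, Slc25a45 and Ehbp1l1 have their higher levels, 6 of the 9 were tested among 9081 genes. With OTV:Malat1 against saline 1 gene was called (0.011%), Malat1, with a change of -0.71 (SE 0.13, adjusted p = 0.048 by edgeR). Sipa1 had 288.0, 253.1, 267.7 and 205.0 CPM in the microglia of the saline animals and 263.1, 236.6 and 248.7 with OTV:Malat1, all within the saline range. The change of Sipa1 was -0.05 (SE 0.16, 95% interval -0.38 to 0.29). Slc25a45 had 64.8, 56.1, 83.0 and 76.5 in saline and 69.4, 78.9 and 59.8 with OTV:Malat1, again overlapping, for a change of 0.02 (SE 0.23, interval -0.45 to 0.48). The other 4 lay between -0.44 (Dpf2) and 0.37 (Pcnx3, which reached the level of the low-count filter in 2 of 4 saline and 3 of 3 OTV:Malat1 animals), and the lowest adjusted p of the 6 was 0.972.

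In vascular cells, the smallest label tested with a member, only Sipa1 had enough counts, and edgeR called 0 of 3246 genes with OTV:Malat1 against saline (0.0%, with 168 or 5.18% at an unadjusted p under 0.05). The saline animals had 125.9, 165.3, 57.93 and 148.7 CPM of Sipa1, from 19, 15, 5 and 13 UMIs. The OTV:Malat1 animals had 29.99, 46.09 and 37.64, from 3, 4 and 2 UMIs. These 3 are below every saline animal, as in 3.88% of genes. A gene was tested here if at least 3 animals reached 115 CPM, and Sipa1 did so in 3 saline and 2 anti-TfR:Malat1 animals and in 0 of the others. It therefore passed only through the saline group, where it is high, and its fitted change of -1.66 (SE 0.59), which was not called, is a description that supports no difference.

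The Malat1 ASO animals, at 72.82, 48.29, 68.08 and 36.05 CPM of Sipa1 in vascular cells, had a fitted change of -1.05 (SE 0.49), and the anti-TfR:Malat1 animals, from 13.4 to 154 CPM on 1 to 9 UMIs, one of -0.80 (SE 0.43), both under the same limit. The vascular label holds endothelial, mural and fibroblast-like nuclei together. The summed level of the 5 endothelial markers, Flt1, Cldn5, Pecam1, Ly6c1 and Slco1a4, was 1007 to 4734 CPM in the saline animals with a median of 4256, and 1619 to 4275 with OTV:Malat1 with a median of 2190. The 6 oligodendrocyte markers summed to 904 to 1256 CPM in saline (median 1046) and 1223 to 1924 with OTV:Malat1 (median 1720), and the 4 neuron markers to 921 to 1841 (median 1339) and 1026 to 2654 (median 2270). The medians of the mural markers were 1743 and 2120, of the fibroblast-like markers 1014 and 790.5, of the astrocyte markers 1264 and 1037 and of the microglial markers 105 and 94.1, each with overlapping ranges. The part of any of these in the values of Sipa1 was not tested.

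Astrocytes gave a test for 1 of the 9, Dpf2, among 8599 genes, of which 1 was called with OTV:Malat1 against saline (0.0116%), Malat1 at -1.65 (SE 0.17). The change of Dpf2 was 0.08 (SE 0.28, 95% interval -0.49 to 0.66). In perivascular macrophages none of the 9 had enough counts for a test.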

How the data were processed

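The authors deposited 1 matrix of integer UMI counts, with per-nucleus columns for sample, cell type label, cluster (Seurat resolution 0.4), doublet call and batch. Per the submitters' processing notes, the tools were Cell Ranger 6.0.1 and Seurat 4, and the build mm10. Intron use, strand use and what a batch is are not given in the sources used here. Of the deposited per-nucleus columns, 12 were not used.

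Counts were summed per animal and deposited label with Python 3.11.15 (numpy 2.4.6, pandas 2.3.3), and all 17 animals fitted together in R 4.3.3 with edgeR 4.0.16 (glmQLFit, glmQLFTest, TMM, filterByExpr, library size without Malat1). P-values are two-sided, adjusted by Benjamini-Hochberg over the genes tested, called under 0.05, and the 95% intervals come from the same fits. All deposited nuclei were kept, the 47758 doublets the authors marked included. Symbols were matched to GENCODE M21 (25511 of 26131, 97.6%), and promoters came from RefSeq. The fits were tested on simulated oligodendrocyte counts without batches, with changes larger than any fitted for the neighbours there. That test does not measure power for them. Alternatives were DESeq2 1.42.0, other size factors, Malat1 in the library size, no filter, 2 groups only, a replicate block, batch as a term, no doublets, nuclei of 1000 or more UMIs, matching clusters and leaving out each animal. Leaving out the smallest cluster from the likeness was chosen after seeing the data.

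The 9 genes and the lists were chosen with earlier results of these data known. The 9 genes, Malat1, Neat1, any coding gene within 1 Mb that passed, and the gene most like each of the 9 over clusters were to be named. Saa3 and Slc35f2 were named after their values were seen. The 95% intervals include the spread between animals, while the limits given for counts of 0 cover counting error only.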

Additional observations from a re-analysis of the deposited data

Results flagged for a closer look

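Of 66 groups of 4 or more animals checked, 5 held 1 animal far from the others, and chance alone flags about 1 in 20 groups. For Frmd8 it was anti-TfR:Malat1 replicate 1 both in oligodendrocytes, at 118 CPM against 95.8 to 104 in the other animals of its group, and in all nuclei, at 21.2 CPM against 14.0 to 16.1. For Map3k11 in oligodendrocytes it was anti-TfR:Malat1 replicate 3, at 5.63 CPM against 8.41 to 9.88. For Ehbp1l1 in oligodendrocytes it was Malat1 ASO replicate 4, at 6.86 CPM against 4.91 to 5.21. For Neat1 in oligodendrocytes it was Malat1 ASO replicate 2, at 1350 CPM against 1096 to 1112.

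The change of Malat1 differed between oligodendrocytes and neurons by the test of the difference itself, by -2.16 on the log2 scale with OTV:Malat1 against saline and by -1.63 with OTV:Malat1 against anti-TfR:Malat1. None of the 9 neighbouring genes had such a difference past the threshold.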

How the results depend on the processing

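None of the 9 genes was called in any fit. Of 320 values of the 32 member changes in oligodendrocytes under 10 other settings, 303 kept their direction and 17 did not, all of changes of at most 0.12 on the log2 scale. With OTV:Malat1 against saline, Ltbp3 turned to -0.013 without doublets and -0.092 in matching clusters, Sipa1 to 0.035 both with batch as a term and in nuclei of 1000 or more UMIs, and Map3k11 to -0.0053 by DESeq2 and -0.051 in nuclei of 1000 or more UMIs. With anti-TfR:Malat1 against saline, batch as a term gave 0.0078 for Frmd8 and 0.024 for Sipa1, nuclei of 1000 or more UMIs 0.039 for Sipa1, the replicate block 0.030 for Pcnx3 and 0.17 for Ehbp1l1, and no doublets 0.058 for Ehbp1l1. With Malat1 ASO, Sipa1 turned to -0.059 without doublets and -0.091 in matching clusters. Between the conjugates, nuclei of 1000 or more UMIs gave 0.040 for Dpf2 and 0.15 for Ltbp3, and batch as a term 0.011 for Sipa1. The cause was not tested.

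The number of genes called in oligodendrocytes with OTV:Malat1 against saline fell from 3 to 1 with no low-count filter, with only the 2 groups compared, with the replicate block and in nuclei of 1000 or more UMIs, and ran from 1 to 4 when each animal was left out; between the conjugates it ran from 1 to 2. In all nuclei DESeq2 called 1 gene with OTV:Malat1 against saline where edgeR called 0. Leaving out each of 17 animals gave the other direction in 40 of 544 values, all of changes of at most 0.09. The ranges with OTV:Malat1 against saline were 0.18 to 0.43 for Slc25a45, -0.18 to -0.017 for Dpf2, 0.093 to 0.33 for Ehbp1l1, -0.0071 to 0.092 for Frmd8, -0.22 to 0.14 for Ltbp3, -0.23 to 0.070 for Sipa1, -0.097 to 0.10 for Map3k11 and -0.025 to 0.18 for Pcnx3. With anti-TfR:Malat1 they were -0.073 to 0.035 for Frmd8, -0.17 to 0.16 for Ltbp3, -0.12 to 0.086 for Sipa1 and -0.14 to 0.043 for Ehbp1l1. Under the same treatment they were -0.30 to -0.15 for Slc25a45 and 0.10 to 0.24 for Map3k11. With Malat1 ASO they were -0.0096 to 0.076 for Frmd8, -0.15 to 0.16 for Sipa1, -0.14 to 0.024 for Map3k11, -0.20 to 0.00045 for Pcnx3, -0.061 to 0.11 for Ehbp1l1 and -0.18 to 0.064 for Malat1. Between the conjugates they were -0.12 to 0.033 for Dpf2, -0.26 to 0.10 for Ltbp3, -0.20 to 0.080 for Sipa1 and -0.25 to -0.060 for Map3k11. In all nuclei the highest change among the 9 with OTV:Malat1 ran from -0.020 to 0.20 and Malat1 with Malat1 ASO from -0.19 to 0.085. The highest among the 9 there ran from 0.068 to 0.41 between the conjugates and from 0.013 to 0.13 with anti-TfR:Malat1. With Malat1 ASO the lowest among the 9 ran from -0.30 to -0.043.

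The replicate numbers paired the samples only in part, and same-numbered saline and OTV:Malat1 samples lie in different batches. A block by these numbers therefore does not match those groups by batch. Over 7044 genes, same-numbered samples of different groups correlated from -0.57 to 0.55, with a median of 0.23 beside -0.08 for other numbers. The correlation was over 0.1 in 11 of 21 same-numbered pairs and in 31 of 85 others. Same-numbered pairs of saline and Malat1 ASO had a median of 0.50 (3 of 4 over 0.1). Samples of the same batch had a median of 0.38 (19 of 27 over 0.1) beside -0.12 for other batches (23 of 79). The block called no member. Over clusters, r of Pcnx3 and Uba1 was 0.87 without the smallest cluster. In oligodendrocytes Ltbp3 and Ehbp1l1 rest on 11 to 51 UMIs per animal in the saline and OTV:Malat1 groups, and Capn1 on 1 to 10.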
